A study of Mus musculus with 18 samples.

Results

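Unsorted tumours from wild-type (WT) hosts were compared with the GFP+ tumour cells sorted from such tumours, gene by gene. Kept were genes that reached a deposited normalized count of 10 in 3 or more of the 6 libraries, which left 15275 of the 48795 genes in the table, and it used 6 of the 18 libraries of the series. GL261 is a mouse glioma cell line that grows in C57BL/6 brains, and the cells here carried green fluorescent protein (GFP). Tumours were taken from mice with symptoms, 6 WT C57BL/6 mice and 6 Pfp/Rag2-/- mice, which lack perforin as well as T and B lymphocytes. The compared groups were 3 libraries of unsorted WT tumour and 3 libraries of GFP+ cells, which flow cytometry had taken from WT tumours after collagenase digestion. Values of 3 libraries of sorted GFP- non-tumour cells from WT hosts, 3 libraries of the GFP+ cells cultured for injection, and the unsorted and GFP+ libraries of Pfp/Rag2-/- hosts are given as points of comparison. The labels give no age, do not give the number of mice behind a library, and do not tell if the GFP+ line is 1 clone. They describe the unsorted material both as tumour and as cells, and do not say plainly whether it went through the digestion. The p-values therefore measure the spread between these libraries, which may be technical in part.

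As background, an unsorted tumour sample mixes RNA of tumour cells with that of macrophages and microglia, lymphocytes, blood vessels and any brain tissue taken along, while sorting on GFP keeps the tumour cells. Immediate early genes, such as Fos and Egr1, encode mostly transcription factors and are switched on within minutes of a stimulus without new protein synthesis. Enzymatic digestion of tissue and flow sorting are known to induce these genes and heat shock genes in many cell types. In bulk samples fewer cells of a type and less RNA per cell cannot be told apart.

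The 6 libraries held 19797765 to 20631674 recovered reads, and 1 read is worth 0.871 to 0.958 normalized counts in them. It is worth more in the GFP- libraries, at 1.31 to 1.54 normalized counts. Levels in percent of a GFP- mean rest on this deposited scaling and are not shares of RNA or of cells. Across genes, Pearson's r was between 0.973 and 0.989 for the 6 pairs within a group and between 0.903 and 0.956 for the 9 pairs across groups; genes are not independent replicates. The label of the GFP+ cells was checked against the oligodendrocyte precursor genes that GL261 tumour cells carry here: the 12 tested genes of that list summed to 61601 to 68177 in unsorted libraries, 53084 to 73012 in GFP+ libraries, 1966 to 8716 in GFP- libraries and 37508 to 39513 in culture. Sox10, a glial lineage factor, stood at 13150.1, 13486 and 16666 in the GFP+ libraries and at 403, 256 and 1859 in the GFP- libraries. The GFP+ libraries were not equally free of other RNA. Ptprc, the pan-leukocyte gene for CD45, reached 2.66, 4.09 and 4.3% of its GFP- mean in the unsorted libraries and 3.09, 0.257 and 0.634% in the GFP+ libraries, so for this gene GFP+ library 1 lay within the range of the unsorted libraries. The macrophage and microglia markers stood below their unsorted range in GFP+ library 1, with a median of 6.17, 5.94 and 6.88% of the GFP- mean in the unsorted libraries and 2.39, 0.633 and 1.38% in the GFP+ libraries. Cldn5, the tight junction gene of brain endothelium, reached 113, 116 and 106% in the unsorted libraries and 3.99, 8.22 and 40.3% in the GFP+ libraries, with GFP+ library 3 the highest of the GFP+ libraries. Results that rest on these libraries are given with and without them.

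With limma's moderated test on log2(normalized count + 1) and Benjamini-Hochberg adjustment, 2559 genes passed an adjusted p of 0.05 and are called here, 16.8% of those tested. Of these, 1572 (10.3%) were higher and 987 (6.46%) lower in unsorted tumour. At least 2-fold differences were more uneven, with 1160 called genes higher (7.59%) and 265 lower (1.73%). All log2 differences below are unsorted minus GFP+ on this scale, which understates the change of genes with low counts, and are given with their standard error (SE). The median over all genes tested was 0.05, and 0.01 and -0.04 under trimmed-mean (TMM) and quantile scaling. Quantile scaling moved the split to 1366 higher and 1448 lower genes, or 48.5% higher against 61.4%. The number of calls depended on single libraries: it was 356 without unsorted library 3, 841 without GFP+ library 2 and 1321 without unsorted library 2, against 1781 to 3323 without any 1 of the other libraries.

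**Figure D1:**
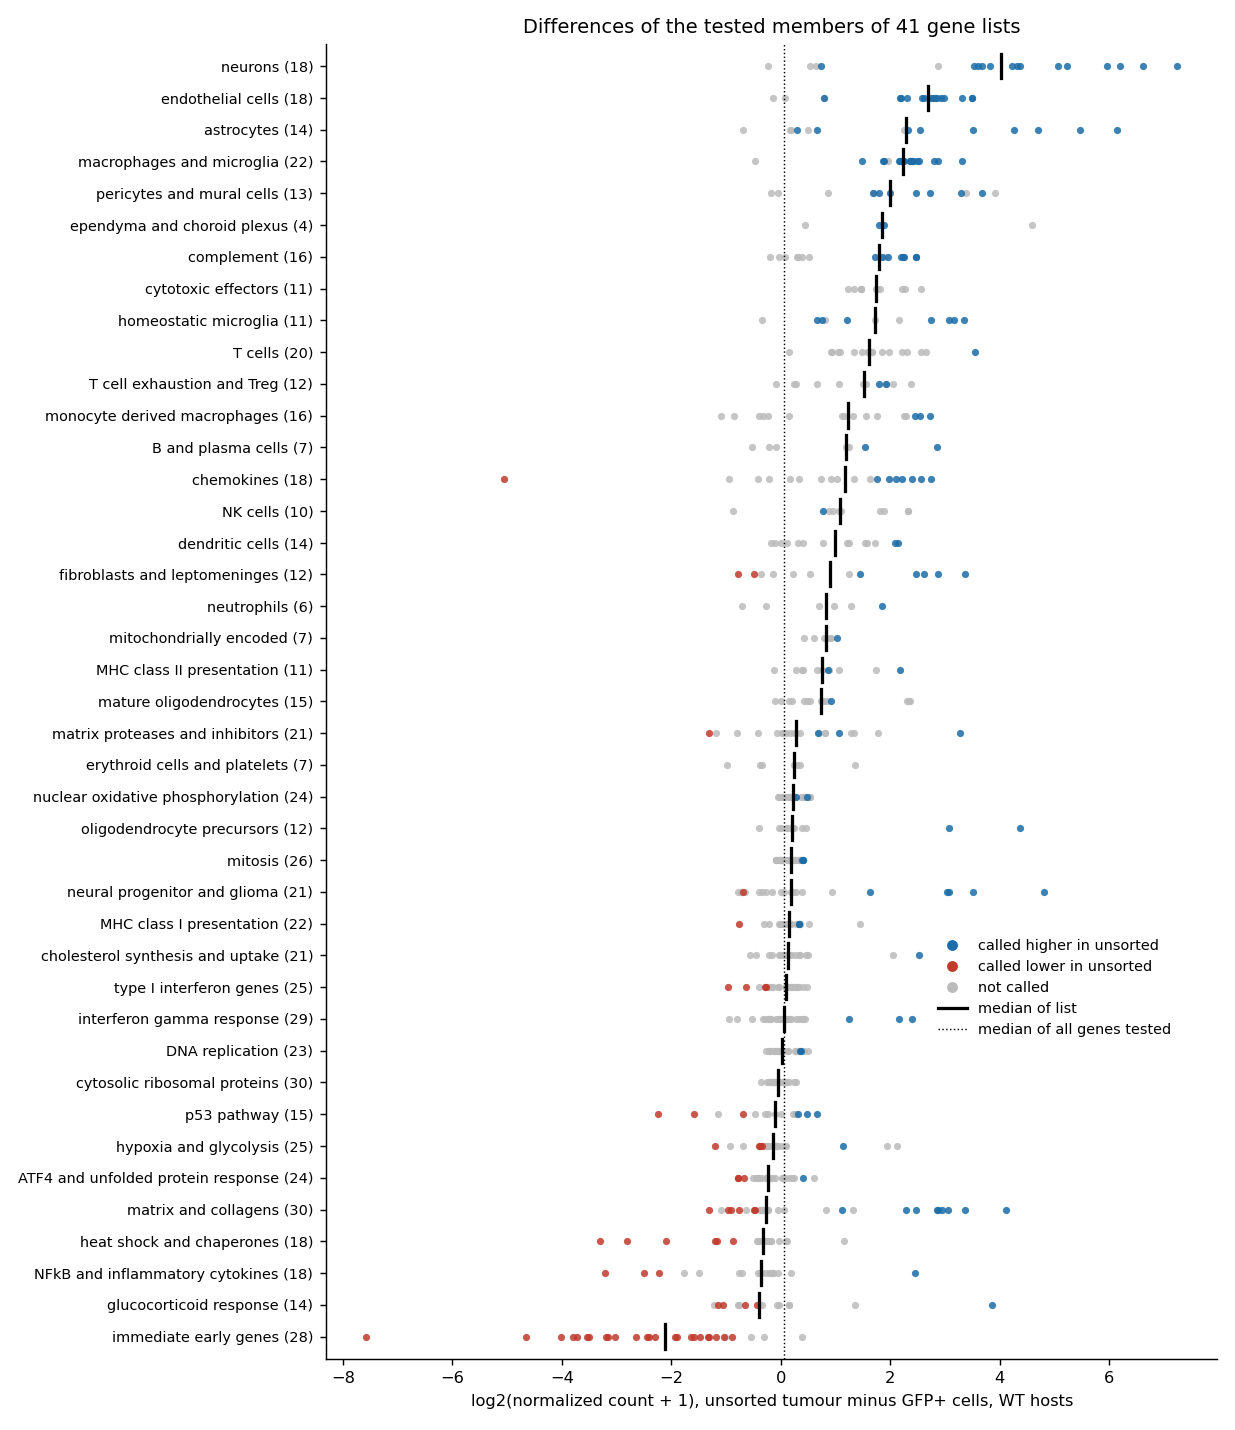
Log2 difference (unsorted tumour minus GFP+ cells, WT hosts, log2 of normalized count + 1) of each tested gene in 41 lists of cell type and pathway genes, ordered by list median; the number of genes stands in brackets, colours mark genes called higher, called lower or not called, bars mark list medians and the dotted line marks the median of all genes, 0.05. Neuron genes have the highest median, 4.02, and immediate early genes the lowest, -2.11.

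Immediate early genes were lower in unsorted tumour than in GFP+ cells. Of the 28 listed and tested, 24 were called lower and 0 higher, with a median log2 difference of -2.11, beside a median of 0.05 over all genes and 6.46% of all genes called lower. edgeR's quasi-likelihood test on recovered reads called 25 of the 28 lower and 0 higher, DESeq2 called 26 lower and 0 higher, and at an unadjusted p under 0.05 the limma test had 26 lower and 0 higher. Under TMM and quantile scaling the list medians were -2.15 and -2.04. With 1 library left out, 16 to 26 of the 28 were called lower, and the median lay between -2.46 and -1.87.

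The promoters of Fos and Fosb are shown because these genes had the largest drops in this list and both carry letters of a cyclic AMP response element (CRE), a known binding site of CREB family activators in early gene promoters. They are the 250 bases before the RefSeq start on GRCm38.p6, 5′ to 3′ on the gene's strand, with TGACG, the half-site of the CRE, in capitals.
Fos, chr12:85473640-85473889, plus strand: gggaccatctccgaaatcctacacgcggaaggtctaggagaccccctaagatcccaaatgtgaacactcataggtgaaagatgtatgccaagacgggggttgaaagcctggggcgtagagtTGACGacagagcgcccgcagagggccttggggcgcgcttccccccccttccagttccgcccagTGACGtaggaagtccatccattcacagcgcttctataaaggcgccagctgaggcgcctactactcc
Fosb, chr7:19310046-19310295, minus strand: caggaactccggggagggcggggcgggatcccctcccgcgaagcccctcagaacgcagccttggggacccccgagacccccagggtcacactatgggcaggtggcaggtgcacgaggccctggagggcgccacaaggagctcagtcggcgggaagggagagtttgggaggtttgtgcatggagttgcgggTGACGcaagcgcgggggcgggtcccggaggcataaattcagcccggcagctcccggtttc
The half-sites begin 129 and 66 bases before the start of Fos and 60 bases before that of Fosb. TGACG, searched on both strands in windows from 250 bases before to 50 bases after the start, was present for 12 of the 20 called early genes that have such a window, against 20.8% of all 32851 windows. The full palindrome TGACGTCA, which holds the half-site, was present for 2 of the 20, against 1.79% of all windows, and the CArG box, the site of serum response factor, for 1 of the 20, against 1.63%. Sites outside these windows were not searched. The half-site was chosen after the sequences were seen, and a match in letters describes the sequence alone.

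Fosb (chr7:19302696-19310051, minus strand, on GRCm38 in GENCODE vM21), which encodes an AP-1 subunit, stood at normalized counts of 101, 86.4 and 87.1 in the unsorted libraries and 24319.7, 21723 and 10145 in the GFP+ libraries. The 3 unsorted values lay far below all GFP+ values, and GFP+ library 3 was the lowest of the GFP+ ones (log2 difference -7.57 ± 0.31 (SE), adjusted p = 0.000209). In GFP- cells it stood at 76386, 77162 and 82264, and in cultured cells at 71.8, 69.8 and 86.8, so the unsorted tumour was near the cultured cells and below both sorted fractions. Fos (chr12:85473890-85477273, plus strand), the founding member of the AP-1 family, had 1621, 1869 and 1670.1 in the unsorted libraries, against 51821, 48083 and 33109 in the GFP+ libraries (-4.66 ± 0.17 (SE), adjusted p = 0.000209). Its GFP- values were 67532, 75556 and 82846 and its culture values 1699, 1807 and 1860.3. For Fos, too, the unsorted tumour overlapped the cultured cells, and every GFP+ and GFP- value from tumours was higher. Egr1, a zinc finger early gene, had 1285, 1190.2 and 996 in the unsorted libraries and 18388, 16729 and 11336 in the GFP+ libraries (-3.72 ± 0.19 (SE), adjusted p = 0.000743). Klf4, a zinc finger factor induced by stress and serum, had 566, 268 and 309 in the unsorted libraries and 8658, 8066 and 2913 in the GFP+ libraries (-4.02 ± 0.45 (SE), adjusted p = 0.00723). Atf3, a stress-induced member of the ATF/CREB family, had 570.2, 423 and 394 in the unsorted libraries and 10494, 7443 and 3231 in the GFP+ libraries (-3.79 ± 0.40 (SE), adjusted p = 0.00655). The groups did not overlap for any of these genes, and in each of them GFP+ library 3 was the lowest GFP+ library.

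Dusp1, Btg2 and Plk2 were lower too. Dusp1, a phosphatase that shuts off MAP kinases, had 825, 722 and 718 in the unsorted libraries and 7969, 7548 and 5012 in the GFP+ libraries (-3.15 ± 0.18 (SE), adjusted p = 0.00108). Btg2, an antiproliferative gene of the early response that p53 also induces, had 404, 404 and 437 in the unsorted libraries and 1677, 1179 and 966 in the GFP+ libraries (-1.58 ± 0.19 (SE), adjusted p = 0.00754). Plk2, listed here with p53 targets and also induced by serum, had 723, 581 and 679 in the unsorted libraries and 4222, 3657 and 1941 in the GFP+ libraries (-2.24 ± 0.27 (SE), adjusted p = 0.00754). The unsorted values of these genes varied less between libraries than the GFP+ values did. Klf2 (-3.53 ± 0.32) and Egr2 (-3.50 ± 0.33) were called lower as well, at adjusted p = 0.0061 and 0.0061. Calls for Fosb, Fos, Klf4, Atf3, Egr1, Klf2, Egr2, Dusp1, Btg2 and Plk2 held in all 16 alternative fits. Ier3, Fosl1, Dusp2 and Arc were the 4 members not called, at -1.02, -0.54, -0.31 and 0.39.

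Across the list, the unsorted mean was within 2-fold of the cultured cells for 19 of 28 genes and the GFP+ mean for 6 of 28. The median log2 distance from culture was -0.07 for unsorted tumour and 2.28 for GFP+ cells. GFP+ library 3 was the lowest GFP+ library for 28 of 28 genes, at a median distance of 1.44, and GFP+ libraries 1 and 2 stood at 2.61 and 2.42. In 23 of 28 genes all 3 unsorted values lay below all 6 values of the GFP+ and GFP- libraries, a position held by 8.64% of all genes tested. The GFP- mean was above the GFP+ mean for 25 of 28, on a scale where 1 read is worth more in GFP- libraries. The share over all genes was not counted. Among other lists, it was above for 20 of 25 type I interferon and 13 of 15 p53 pathway genes. For ATF4 and unfolded protein response genes it was 9 of 24, and for mitosis genes 0 of 26. In the GFP+ libraries, Fosb reached 30.9, 27.6 and 12.9% of its GFP- mean, Fos 68.8, 63.8 and 44% and Egr1 104, 94.2 and 63.8%. Ptprc reached 3.09, 0.257 and 0.634% of its GFP- mean in the same libraries, and Cldn5 3.99, 8.22 and 40.3%. The part of GFP- cell RNA in the early gene levels of the GFP+ libraries was not tested. The cultured cells are labelled as sorted before RNA extraction, as are the GFP+ and GFP- cells, and the unsorted tumour is labelled as not sorted. Whether digestion or sorting had a part in these differences was not tested.

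**Figure D2:**
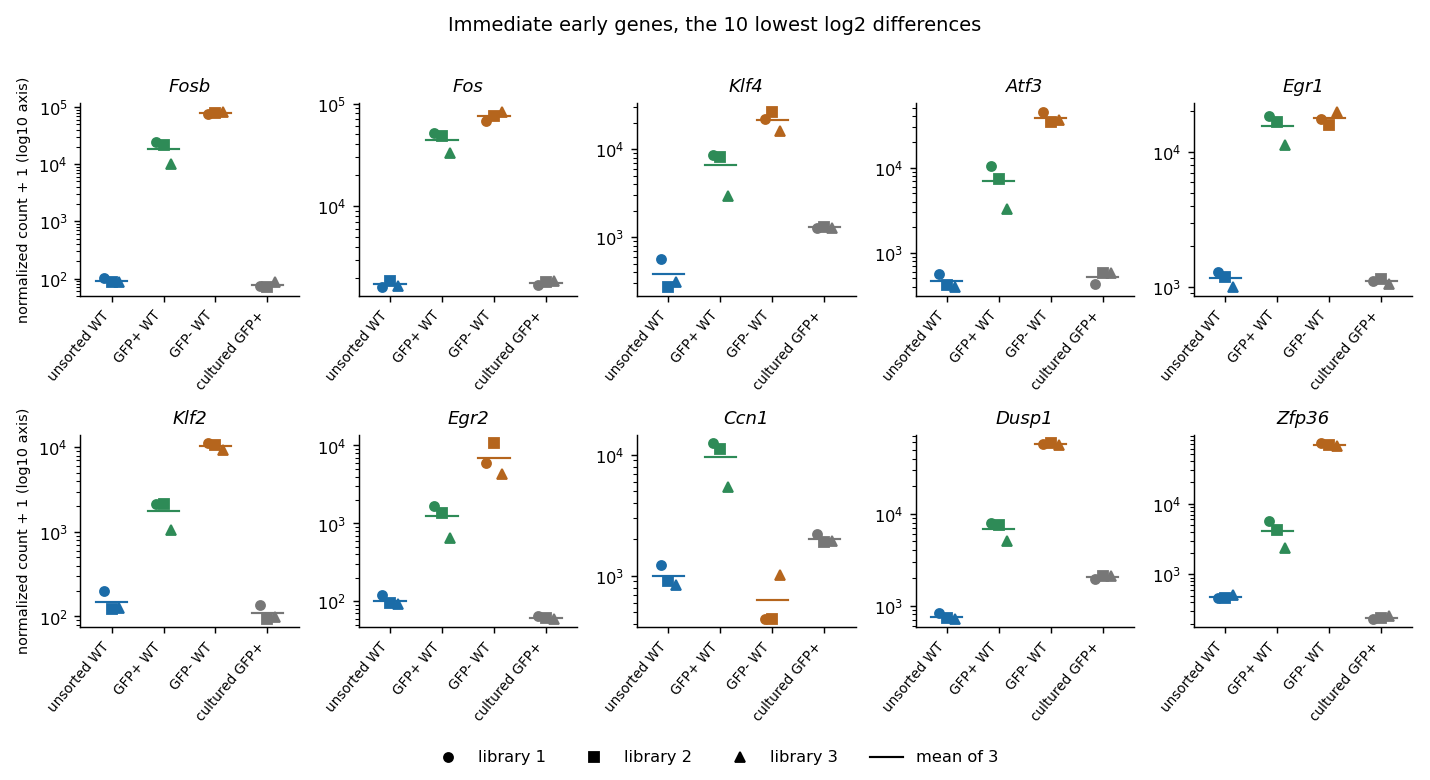
Normalized count + 1 (log10 axis) of the 10 immediate early genes with the lowest differences in each library of unsorted WT tumour, GFP+ WT cells, GFP- WT cells and cultured GFP+ cells, with lines at the mean of 3 libraries. The unsorted libraries sit below the GFP+ libraries for all 10 genes, as for Fosb at 101, 86.4 and 87.1 in unsorted libraries.

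Heat shock genes were lower in unsorted tumour in smaller number. Of 18 heat shock and chaperone genes tested, 6 were called lower in unsorted tumour and 0 higher, where 6.46% of all genes were called lower, with a median of -0.33. edgeR called 7 lower and DESeq2 11, each with 0 higher, and at an unadjusted p under 0.05 there were 10 lower and 1 higher. The count lower was 1 without unsorted library 3, and 4 to 7 in the other 5 left-out fits. The called genes were Hspa1b, Hspa1a, Dnajb1, Hsph1, Bag3 and Dnajb4, which are inducible by heat shock factor. The constitutive chaperones Hspa8 (-0.28) and Hspa4 (0.10) were 2 of the 12 members not called. Hspa8 was, however, called lower by DESeq2 (adjusted p = 0.00836) and with all 18 libraries in 1 fit (adjusted p = 0.0473). Dnajb1, a cochaperone of HSP70, had 1260.2, 1550.1 and 1317 in the unsorted libraries, against 7228, 5786 and 4836 in the GFP+ libraries and 1645, 1444 and 1592 in culture (-2.10 ± 0.16 (SE), adjusted p = 0.00458). Hspa1b, inducible HSP70, had 20.3, 22.5 and 13.1 in the unsorted libraries and 529.6, 95 and 131 in the GFP+ libraries (-3.30 ± 0.61 (SE), adjusted p = 0.0165). GFP+ library 1 was the highest by several fold. Hspa1a is a near-identical neighbouring copy, so reads can be split between Hspa1a and Hspa1b. Without unsorted library 3, neither was called (adjusted p = 0.0721 and 0.093).

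The 250 bases before the start of Hspa1b are shown because 4 of the 6 called heat shock genes, Hspa1b among them, hold the core of a heat shock element, GAANNTTC (in capitals, both strands searched in the same windows of 250 bases before to 50 after the start, with a share of 7.86% over all windows). The core was chosen after the sequences were seen.
Hspa1b, chr17:34959239-34959488, minus strand: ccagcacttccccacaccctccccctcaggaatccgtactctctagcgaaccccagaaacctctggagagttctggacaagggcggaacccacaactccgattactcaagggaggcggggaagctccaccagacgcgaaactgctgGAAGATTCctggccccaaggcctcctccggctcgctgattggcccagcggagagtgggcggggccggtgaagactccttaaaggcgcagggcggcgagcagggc
The core begins 104 bases before the start.

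Among 18 NF-kB targets and inflammatory cytokines, 3 were called lower and 1 higher, where 6.46% of all genes were called lower and 10.3% higher. The lower genes were Nfkbiz, Nfkbia and Tnfaip3, all feedback regulators of NF-kB. Nfkbiz had 292, 302 and 325 in the unsorted libraries and 4658, 3593 and 1363 in the GFP+ libraries (-3.21 ± 0.41 (SE), adjusted p = 0.00759). Its GFP+ values were 17.8, 13.7 and 5.2% of the GFP- mean, and the groups did not overlap. The count lower was 5 without GFP+ library 3, 2 without GFP+ library 1 or unsorted library 1, and 1 without GFP+ library 2, unsorted library 2 or unsorted library 3. The cytokines Tnf (-1.50), Il1a (-0.77), Il1b (-0.72) and Il6 (-0.30) were not called, and GFP+ library 1 was the highest GFP+ library for each. Cxcl2, a neutrophil chemokine, had 8.3, 14.4 and 4.35 in the unsorted libraries and 1653, 170.1 and 99.5 in the GFP+ libraries (-5.06 ± 0.99 (SE), adjusted p = 0.0187). GFP- cells held 60447, 92434 and 24296, and the GFP+ values were 2.8, 0.288 and 0.168% of that mean, beside Ptprc shares of 3.09, 0.257 and 0.634%. Hspa1b had shares of 3.07, 0.552 and 0.759%, and all 3 genes had their highest GFP+ share in library 1. The part of leukocyte RNA in the Cxcl2 and Hspa1b differences was not tested. Cxcl2 was not called without unsorted library 3 (adjusted p = 0.0796).

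Neuron genes had the largest excess in unsorted tumour. Of 18 tested, 14 were called higher and 0 lower, where 10.3% of all genes were called higher, with a median of 4.02 (quantile scaling 3.04). edgeR and DESeq2 each called 14 higher. Gad2 (chr2:22622205-22693874, plus strand), an enzyme that makes GABA, had 93.2, 126 and 286 in the unsorted libraries and 0 in each GFP+ library. Against a floor of 3 reads per GFP+ library it was at least 59.6-fold higher (adjusted p = 0.00194), and GFP- libraries held 8.83, 1.54 and 0. No GFP+ library held a read of it. Gad1, the other GABA-making enzyme, had 127, 104 and 262 in the unsorted libraries and 0, 0.95 and 3.68 in the GFP+ libraries (6.19 ± 0.62 (SE), adjusted p = 0.0061). Gria1, an AMPA receptor subunit, had 96.9, 119 and 292 in the unsorted libraries and 0.958, 0 and 2.76 in the GFP+ libraries (6.28 ± 0.61 (SE), adjusted p = 0.0061). All unsorted values of these genes were above all GFP+ values, and unsorted library 3 was the highest. Arpp21 and Scn4b, genes with high expression in the striatum, were among the 10 highest differences, at 6.77 and 6.64. Arpp21 had 305, 78.3 and 442 in the unsorted libraries and 0, 0 and 7.37 in the GFP+ libraries (adjusted p = 0.00914).

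The GFP- fraction also held less of these transcripts than unsorted tumour. In 13 of the 18 neuron genes the 3 unsorted values lay above all 6 sorted values, a position held by 9.6% of all genes tested. For the 3 neuron markers with enough GFP- signal, the median level was 287% ± 191 (SD, n = 3) of the GFP- mean in unsorted libraries and 7.54% ± 6.55 in GFP+ libraries. By library it was 176, 177 and 508% in the unsorted and 4.65, 2.94 and 15% in the GFP+ libraries, so library 3 was the highest in both groups and the other unsorted libraries stood well below the mean. Unsorted library 3 was the highest unsorted library for 17 of 18 genes. The count of neuron genes higher was 7 without unsorted library 3, and 11 to 15 in the other 5 left-out fits. Slc17a7 (-0.24), Tubb3 (0.54), Syn1 (0.65) and Camk2a (2.88) were the 4 not called. Tubb3, which culture also holds at 1517, 1619.5 and 1702, had 1621, 2672 and 2784 in the unsorted libraries and 1534, 1754 and 1461 in the GFP+ libraries. How much brain tissue each unsorted sample held, and which cells the digestion and the gates kept, was not tested.

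Astrocyte genes were called higher in unsorted tumour in 9 of 14 tested and lower in 0, where 10.3% of all genes were called higher. Their median was 2.28 (quantile scaling 1.49). edgeR called 6 and DESeq2 8. Aqp4, the water channel of astrocyte endfeet, had 314, 511 and 707 in the unsorted libraries and 0.958, 2.85 and 42.4 in the GFP+ libraries (6.14 ± 1.05 (SE), adjusted p = 0.0129). Slc4a4, a bicarbonate cotransporter, had 176, 237 and 312 in the unsorted libraries and 2.87, 0.95 and 19.3 in the GFP+ libraries (5.46 ± 0.80 (SE), adjusted p = 0.00933). Mlc1, a membrane protein of astrocyte junctions, had 398, 404 and 491 in the unsorted libraries and 6.7, 2.85 and 43.3 in the GFP+ libraries (5.29 ± 0.80 (SE), adjusted p = 0.0101). GFP+ library 3 was the highest GFP+ library for each, and the groups did not overlap. The unsorted values also exceeded the GFP- values, which for Aqp4 were 38.3, 20 and 67.1. Culture held Aqp4 at 0, 0.943 and 0.954 and Mlc1 at 0 in each library. Gfap, the intermediate filament of astrocytes, had 2044, 2599 and 3353 in the unsorted libraries and 113, 97.9 and 1077 in the GFP+ libraries (3.51 ± 0.84 (SE), adjusted p = 0.0332), and culture held 278, 242 and 219. Its call was lost with edgeR (adjusted p = 0.084) and with DESeq2 (adjusted p = 0.0593), and without GFP+ library 1 (adjusted p = 0.079), without GFP+ library 2 (adjusted p = 0.109), without unsorted library 2 (adjusted p = 0.0758) and without unsorted library 3 (adjusted p = 0.116). S100b and Aldoc, at 0.17 and 0.19, were not called, and culture held them at 2611, 2618 and 2659.7 and 2028, 2267 and 2497. Fgfr3, not called at -0.70, stood at 417, 243 and 271 in the unsorted libraries, 587, 672 and 297 in the GFP+ libraries and 8288, 7418 and 7428 in culture. The count higher was 2 without unsorted library 3, and 6 to 10 in the other 5 left-out fits, and calls were lost without unsorted library 3 for Aqp4, Slc4a4 and Mlc1 (adjusted p between 0.0512 and 0.0633).

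Most oligodendrocyte lineage genes were not called, beside 10.3% of all genes called higher and 6.46% lower. Of 15 mature oligodendrocyte genes, 1 was called higher and 0 lower, by limma and by edgeR, and 4 higher by DESeq2. The called gene was Mal, a myelin proteolipid, with 232, 197 and 273 in the unsorted libraries and 103, 107 and 162 in the GFP+ libraries (0.93 ± 0.22 (SE), adjusted p = 0.0336). Its call was lost without GFP+ library 1 (adjusted p = 0.0867), without GFP+ library 2 (adjusted p = 0.124), without unsorted library 2 (adjusted p = 0.0538) and without unsorted library 3 (adjusted p = 0.127). It was also lost with quantile scaling (adjusted p = 0.0665) and with all 18 libraries in 1 fit (adjusted p = 0.107). Mag, a myelin glycoprotein, had 196, 226 and 414 in the unsorted libraries and 38.3, 21.9 and 158 in the GFP+ libraries (2.34 ± 0.68 (SE), adjusted p = 0.0559). Mobp, a myelin protein, had 983, 695 and 1265 in the unsorted libraries and 115, 39.9 and 1501 in the GFP+ libraries, with GFP+ library 3 the highest of all 6, and the groups overlapped (adjusted p = 0.208). Without GFP+ library 3, 8 of the 15 were called higher; it was 2 without unsorted library 1 and 0 without any 1 of the other 4 libraries, where 4 to 6 passed an unadjusted p under 0.05. Of 12 oligodendrocyte precursor genes, 2 were called, Neu4 and Matn4, and 4 without GFP+ library 3. The differences of the lineage factors Olig1, Olig2 and Sox10 were 0.11, 0.39 and -0.03, with SEs of 0.15, 0.17 and 0.12, and the groups overlapped for each. Neu4, a sialidase, had 23.1, 27.9 and 34.8 in the unsorted libraries and 0, 0 and 1.84 in the GFP+ libraries, that is 96 reads in the 3 unsorted libraries against 2 in the 3 GFP+ libraries (4.37 ± 0.53 (SE), adjusted p = 0.00754). The ratio of normalized sums was 46.6, with a 95% counting interval from 12.5 to 390.1 that covers counting error alone.

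**Figure D3:**
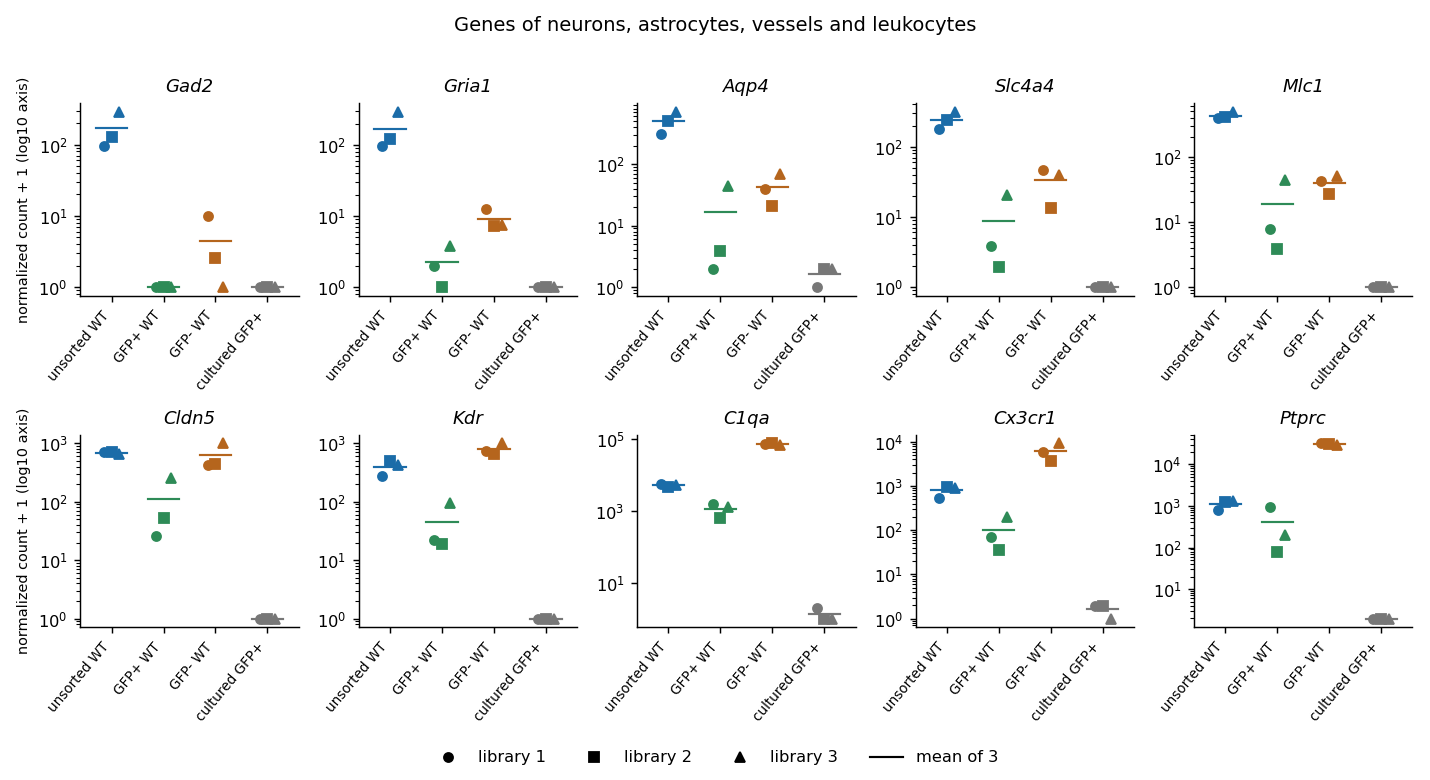
Normalized count + 1 (log10 axis) of Gad2, Gria1, Aqp4, Slc4a4, Mlc1, Cldn5, Kdr, C1qa, Cx3cr1 and Ptprc in each library of unsorted WT tumour, GFP+ WT cells, GFP- WT cells and cultured GFP+ cells, with lines at the mean of 3 libraries. Neuron and astrocyte genes are highest in unsorted tumour, while C1qa is highest in GFP- cells, and GFP+ library 1 reaches the unsorted range for Ptprc (946, against 816, 1254 and 1319 in unsorted tumour).

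Macrophage and microglia genes were higher in unsorted tumour, at a small part of their level in GFP- cells. Of 22 tested, 19 were called higher and 0 lower, with a median of 2.24, where 10.3% of all genes were called higher. edgeR called 18 higher and DESeq2 19. The median marker stood at 6.33% ± 0.49 (SD, n = 3) of the GFP- mean in unsorted libraries and at 1.47% ± 0.882 in GFP+ libraries. C1qa, a chain of complement C1q made by macrophages and microglia, had 5574, 4686 and 5442 in the unsorted libraries, against 1630.0, 637 and 1279 in the GFP+ libraries (2.25 ± 0.31 (SE), adjusted p = 0.00895). GFP- cells held 73618, 77585 and 70544. Cx3cr1, the fractalkine receptor, had 524, 968 and 888 in the unsorted libraries and 68, 34.2 and 192 in the GFP+ libraries (3.30 ± 0.58 (SE), adjusted p = 0.0137). Aif1, which encodes IBA1, had 404, 412 and 469 in the unsorted libraries and 111, 26.6 and 63.5 in the GFP+ libraries (2.87 ± 0.46 (SE), adjusted p = 0.0114). The groups did not overlap for these 3 genes. Cd14 (-0.48), Laptm5 (1.97) and Ptprc (2.17) were not called, and Ptprc overlapped through GFP+ library 1, which was the highest GFP+ library for 21 of the 22. The count higher was 3 without unsorted library 3, and 13 to 21 in the other 5 left-out fits; it was 21 without GFP+ library 1. Calls were lost without unsorted library 3 for Cx3cr1 and Aif1 (adjusted p between 0.0562 and 0.0654).

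Genes of homeostatic microglia gave 7 called higher of 11 and 0 lower (edgeR 6, DESeq2 9), beside 10.3% of all genes called higher. The median marker level was 11.9% ± 1.03 of the GFP- mean in unsorted libraries and 2.28% ± 1.45 in GFP+ libraries. The summed level of the same 10 markers was 17.1, 53.5 and 55.9% in the unsorted and 17.6, 12.3 and 27.2% in the GFP+ libraries, so there the groups overlapped. Gpr34, a lysophospholipid receptor of microglia, had 113, 83.7 and 74 in the unsorted libraries and 12.4, 4.75 and 14.7 in the GFP+ libraries (3.07 ± 0.43 (SE), adjusted p = 0.00889). P2ry12, the purinergic receptor of resting microglia, had 199, 192 and 211 in the unsorted libraries and 147, 96.9 and 115 in the GFP+ libraries (0.76 ± 0.19 (SE), adjusted p = 0.0361), a call lost with quantile scaling (adjusted p = 0.0848), with edgeR (adjusted p = 0.0502), with replicate numbers as a block (adjusted p = 0.0629), and without GFP+ library 2 (adjusted p = 0.125), without GFP+ library 3 (adjusted p = 0.0776), without unsorted library 2 (adjusted p = 0.075) and without unsorted library 3 (adjusted p = 0.129). Both sets of values stood apart without overlap. Tmem119, usually a microglia gene, had 2598, 13639.7 and 14211 in the unsorted libraries, 4224, 3063 and 7288 in the GFP+ libraries and 3970.0, 2179.9 and 5251 in the GFP- libraries, so here it did not mark the GFP- fraction. The count higher was 4 without unsorted library 2, 3 without unsorted library 3, and 5 to 8 in the other 4 left-out fits. Monocyte-derived macrophage genes gave 3 of 16 called higher and 0 lower, with Ccr2, the monocyte chemokine receptor, at 261, 408 and 455 in the unsorted libraries and 93.9, 33.3 and 74.6 in the GFP+ libraries (2.55 ± 0.40 (SE), adjusted p = 0.0109). That count was 6 without GFP+ library 1, 0 without unsorted library 3,, with 6 at an unadjusted p under 0.05 in the last, and 2 to 4 in the other 4 left-out fits, and Ccr2 was not called without unsorted library 3 (adjusted p = 0.0562). Arg1, Mrc1, Spp1 and Chil3, genes of tissue-remodelling macrophages, were higher in unsorted library 1 than in unsorted libraries 2 and 3; there Chil3 stood at 2327, against 36.9 and 14.8 in unsorted libraries 2 and 3, and none of the 4 was called (1.15, 1.11, 1.32 and -0.85).

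Complement and chemokine genes were called higher in part, and C1qa, C1qb and C1qc are also counted in the macrophage and microglia list. Over all genes tested, 10.3% were called higher and 6.46% lower. Of 16 complement genes, 8 were called higher and 0 lower (edgeR 6, DESeq2 8), among them C1qa, C1qb, C1qc, C3, Cfb, C3ar1 and C5ar1. C3ar1, the receptor for the C3a fragment, had 694, 687 and 733 in the unsorted libraries and 241, 64.6 and 129.8 in the GFP+ libraries (2.47 ± 0.42 (SE), adjusted p = 0.0125). C4b and C1ra were not called, at -0.20 and 0.07, and GFP+ cells held C4b at 17701, 19064 and 18652. The complement count was 5 without GFP+ library 2, 5 without GFP+ library 3, 5 without unsorted library 2, 1 without unsorted library 3, and 8 to 9 in the other 2 left-out fits. Of 18 chemokines, 7 were called higher (Ccl2, Ccl7, Ccl12, Cxcl9, Cxcl12, Cxcl16 and Cx3cl1) and 1, Cxcl2, lower. Cxcl9, an interferon-gamma induced chemokine, had 454, 1051 and 792 in the unsorted libraries and 144, 113 and 155 in the GFP+ libraries (2.40 ± 0.30 (SE), adjusted p = 0.00757). Ccl12, a monocyte attractant, had 219, 148 and 147 in the unsorted libraries and 35.4, 18.1 and 33.2 in the GFP+ libraries (2.56 ± 0.31 (SE), adjusted p = 0.00754). Neither gene's groups overlapped, and both were called in all 16 alternative fits. The chemokine count higher was 4 without unsorted library 2, 4 without unsorted library 3, and 5 to 7 in the other 4 left-out fits, and C3ar1 was not called without unsorted library 3 (adjusted p = 0.0613).

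Few lymphocyte genes were called over all 6 libraries, where 10.3% of all genes were called higher. The counts changed when GFP+ library 1 was left out. Of 20 T cell genes, 1, Bcl11b, was called higher and 0 lower by limma and by edgeR, 2 higher by DESeq2, and 8 higher at an unadjusted p under 0.05. Cd3e, a chain of the T cell receptor complex, had 35.1, 48.6 and 43.5 in the unsorted libraries and 33.5, 1.9 and 5.53 in the GFP+ libraries (2.31 ± 0.83 (SE), adjusted p = 0.0982). Cd8a, the coreceptor of cytotoxic T cells, had 42.4, 84.6 and 139 in the unsorted libraries and 54.6, 2.85 and 23 in the GFP+ libraries (2.22 ± 0.94 (SE), adjusted p = 0.146). GFP+ library 1 lay at 33.5 for Cd3e, just under the unsorted range, and within that range for Cd8a, and GFP+ libraries 2 and 3 lay well below it. It was the highest GFP+ library for 20 of 20 T cell genes. Without GFP+ library 1, 14 of the 20 were called higher, and 0 without any 1 of the other 5 libraries (2 to 7 at an unadjusted p under 0.05).

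Killing and natural killer (NK) genes gave like counts, beside the 10.3% of all genes called higher. Of 11 cytotoxic effector genes, 0 were called by limma and by edgeR, 1 by DESeq2, and 3 were higher at an unadjusted p under 0.05; without GFP+ library 1, 10 were called higher, and 1 without unsorted library 1. Gzmb, a granule protease of killer cells, had 519, 672 and 808 in the unsorted libraries and 817, 36.1 and 93 in the GFP+ libraries (2.21 ± 0.99 (SE), adjusted p = 0.166). Prf1, the pore-forming protein absent from Pfp/Rag2-/- hosts, had 109, 99 and 139 in the unsorted libraries and 118, 4.75 and 10.1 in the GFP+ libraries (2.55 ± 1.01 (SE), adjusted p = 0.124). The groups overlapped for both through GFP+ library 1. Of 10 NK cell genes 1, Klrk1, was called (edgeR 0, DESeq2 1), and 8 without GFP+ library 1; the count was 1 without unsorted library 1 and 0 without any 1 of the other 4 libraries (2 at an unadjusted p under 0.05 in each). Of 12 exhaustion and regulatory T cell genes 2 were called, Lag3 and Tnfrsf9, and 7 without GFP+ library 1. Lag3, an inhibitory receptor, had 339, 500.2 and 674 in the unsorted libraries and 198, 71.3 and 146 in the GFP+ libraries (1.92 ± 0.40 (SE), adjusted p = 0.022), and it was not called without unsorted library 2 or 3 (adjusted p = 0.0597 and 0.0899). The exhaustion count was then 0, with 3 at an unadjusted p under 0.05, and it was 1 without GFP+ library 2 or 3. The median T cell marker stood at 1.91, 2.56 and 4.3% of its GFP- mean in the unsorted libraries and at 3, 0.247 and 0.543% in the GFP+ libraries.

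Other blood and brain lining lists were short, and are given beside the 10.3% of all genes called higher. Of 14 dendritic cell genes 2 were called higher, Itgax and Clec10a, and 6 without GFP+ library 1, 4 without unsorted library 1 and 1 without any 1 of the other libraries. Of 6 neutrophil genes 1 was called, the growth factor receptor Csf3r, and 0 without GFP+ library 2 or 3 or unsorted library 2 or 3 (1 at an unadjusted p under 0.05 in each). Of 7 B and plasma cell genes 2 were called, the immunoglobulin genes Jchain and Igkc, with 1 without GFP+ library 1 or unsorted library 1 and 0 without any 1 of the other 4 (2 at an unadjusted p under 0.05 in each). Of 7 erythroid and platelet genes 0 were called by limma or edgeR and 1 by DESeq2, and 1 passed an unadjusted p under 0.05. Of 4 ependyma and choroid plexus genes 2 were called, Foxj1 and Rarres2, with 1 without GFP+ library 1 and 0 without GFP+ library 2, unsorted library 2 or unsorted library 3 (2 to 3 at an unadjusted p under 0.05). No member of these 5 lists was called lower.

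**Figure D4:**
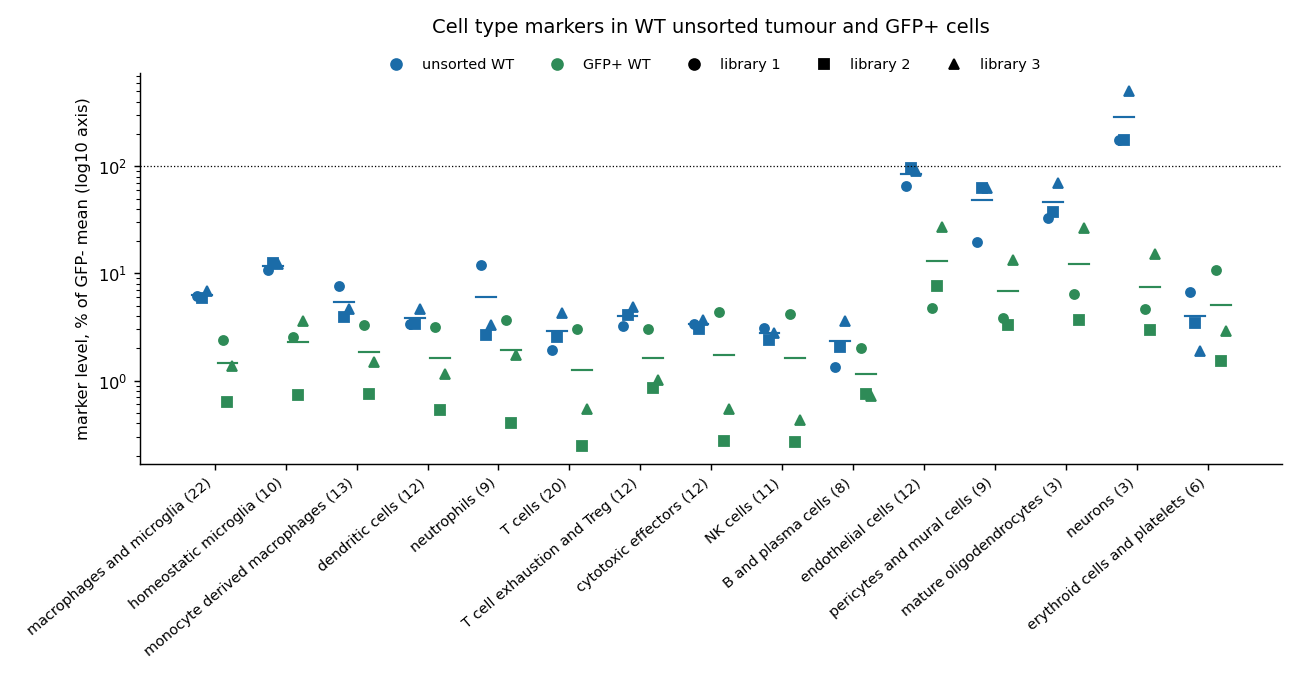
Median marker level in percent of the mean of 3 GFP- libraries (log10 axis) for 15 cell types in each unsorted and GFP+ WT library, with the number of markers in brackets, a line at the mean of 3 libraries and a dotted line at 100%. Leukocyte types stand at 12.5% or less in unsorted tumour, endothelial markers at 65.8 to 96.6% and neuron markers above 100%, and GFP+ library 1 is the highest GFP+ library for most leukocyte types. The levels rest on the deposited scaling, in which 1 read is worth more in GFP- libraries, and are not shares of RNA or of cells.

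Vessel genes were higher in unsorted tumour than in GFP+ cells. Of 18 endothelial genes, 15 were called higher and 0 lower, with a median of 2.68, where 10.3% of all genes were called higher. edgeR called 14 higher and DESeq2 16. The median endothelial marker stood at 84.4% ± 16.4 (SD, n = 3) of the GFP- mean in unsorted libraries and at 13.2% ± 12.2 in GFP+ libraries, while the macrophage markers stood at 6.33% ± 0.49 in unsorted and 1.47% ± 0.882 in GFP+ libraries. By library the endothelial median was 65.8, 96.6 and 90.9% in the unsorted and 4.72, 7.6 and 27.2% in the GFP+ libraries, with GFP+ library 3 far above the other GFP+ libraries. The summed level of the same 12 markers was lower, at 36.9, 47 and 42.2% of the GFP- mean in the unsorted and 4.49, 3.81 and 13.1% in the GFP+ libraries. Cldn5 had 702, 724 and 664 in the unsorted libraries, against 24.9, 51.3 and 251 in the GFP+ libraries (3.32 ± 0.73 (SE), adjusted p = 0.0258). Kdr, which encodes VEGF receptor 2, had 268, 490.3 and 429 in the unsorted libraries and 21.1, 18.1 and 94.9 in the GFP+ libraries (3.49 ± 0.60 (SE), adjusted p = 0.0132). Emcn, endomucin, had 163, 111 and 90.6 in the unsorted libraries and 3.83, 5.7 and 35 in the GFP+ libraries (3.50 ± 0.72 (SE), adjusted p = 0.0216). The groups did not overlap for these 3 genes, and culture held each at 0. GFP+ library 3 was the highest GFP+ library for 13 of the 18. Flt1 (0.08), Mfsd2a (-0.14) and Ly6c1 (0.78) were not called, and culture held Flt1 at 2074, 2211 and 2164. The count was 8 without GFP+ library 2 or unsorted library 2, 0 without unsorted library 3 (15 at an unadjusted p under 0.05), and 14 to 15 in the other 3 left-out fits. Single calls were lost without GFP+ library 2 for Cldn5 and Emcn (adjusted p between 0.0788 and 0.0931), without unsorted library 2 for Cldn5 and Emcn (adjusted p between 0.0571 and 0.0652) and without unsorted library 3 for Cldn5, Kdr and Emcn (adjusted p between 0.0634 and 0.0909).

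Pericyte and mural cell genes gave 7 called higher of 13 and 0 lower (edgeR 5, DESeq2 10), beside 10.3% of all genes called higher. Their median was 2.00. Rgs5, a regulator of G protein signalling in pericytes, had 266, 709.8 and 877 in the unsorted libraries and 54.6, 62.7 and 162 in the GFP+ libraries (2.72 ± 0.55 (SE), adjusted p = 0.0199). Pdgfrb, the receptor that recruits pericytes to vessels, had 72.9, 253 and 233 in the unsorted libraries and 6.7, 12.4 and 44.2 in the GFP+ libraries (3.29 ± 0.73 (SE), adjusted p = 0.0262). Unsorted library 1 was the lowest unsorted library for both, and the groups did not overlap. Cspg4, which encodes NG2, was not called, at -0.19 ± 0.10, and GFP+ cells held it at 3366, 3712 and 4254. The count was 3 without GFP+ library 1, 1 without GFP+ library 2, unsorted library 2 or unsorted library 3, and 8 and 9 without the remaining libraries, and the calls of Rgs5 and Pdgfrb were lost without GFP+ library 1 for Pdgfrb (adjusted p = 0.0521), without GFP+ library 2 for Rgs5 and Pdgfrb (adjusted p between 0.0747 and 0.093), without unsorted library 2 for Rgs5 and Pdgfrb (adjusted p between 0.0586 and 0.0726) and without unsorted library 3 for Rgs5 and Pdgfrb (adjusted p between 0.0806 and 0.102).

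Matrix genes went both ways, beside 10.3% of all genes called higher and 6.46% lower. Of 30 tested, 9 were called higher and 6 lower in unsorted tumour, with a median of -0.28 (edgeR 6 and 5, DESeq2 10 and 9). The 9 higher genes included Col4a1, Col4a2, Col1a2, Col5a2, Col6a3 and Nid1, which culture held at low values. Col4a1, a basement membrane collagen, had 1843, 3075 and 2412 in the unsorted libraries and 112, 208 and 1008 in the GFP+ libraries (3.05 ± 0.72 (SE), adjusted p = 0.0312), with 13.2, 15.1 and 13.4 in culture. Col1a2, a chain of fibrillar type I collagen, had 107, 242 and 343 in the unsorted libraries and 10.5, 10.5 and 62.6 in the GFP+ libraries (3.36 ± 0.73 (SE), adjusted p = 0.0255). The lower genes, Col12a1, Col27a1, Col18a1, Lama4, Col3a1 and Col6a1, had each GFP- value below each unsorted value, except Col27a1. Col27a1 had 172, 166 and 183 in the unsorted libraries and 363, 328 and 322 in the GFP+ libraries (-0.96 ± 0.12 (SE), adjusted p = 0.00761). Col12a1 had 840.5, 706 and 618 in the unsorted libraries and 1779, 2619 and 1228 in the GFP+ libraries (-1.32 ± 0.26 (SE), adjusted p = 0.0192), and GFP- cells held it at 45.6, 63.2 and 238. The groups did not overlap for any of these 4 genes. The count higher was 0 without unsorted library 3 (10 at an unadjusted p under 0.05), 2 without GFP+ library 2, 3 without unsorted library 2 and 6 to 10 in the other 3 left-out fits. The count lower was 1 without unsorted library 3, 2 without GFP+ library 2 or unsorted library 2, 3 without GFP+ library 1 and 5 to 6 in the other 2. Single calls were lost without GFP+ library 1 for Col4a1 and Col1a2 (adjusted p between 0.0513 and 0.0578), without GFP+ library 2 for Col4a1 and Col1a2 (adjusted p between 0.0891 and 0.11), without unsorted library 2 for Col4a1, Col1a2 and Col12a1 (adjusted p between 0.0538 and 0.0788) and without unsorted library 3 for Col4a1, Col1a2 and Col12a1 (adjusted p between 0.0815 and 0.104), and the Col4a1 call also with edgeR (adjusted p = 0.0629). Fibroblast and leptomeningeal genes, which share Col1a2, Col3a1 and Col6a3 with this list, gave 5 called higher and 2 lower of 12. The count higher was 0 without GFP+ library 2 or unsorted library 3 (5 at an unadjusted p under 0.05 in each), 1 without GFP+ library 1 or unsorted library 2, and 4 and 5 without GFP+ library 3 and unsorted library 1; the count lower was 0, 1 or 2.

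Among 21 matrix proteases and inhibitors, 3 were called higher and 1 lower, where 10.3% of all genes were called higher and 6.46% lower. The lower gene was Adamts1, a secreted protease that cuts proteoglycans. It had 6123, 6478 and 6890.3 in the unsorted libraries and 19007, 18805 and 11727 in the GFP+ libraries (-1.31 ± 0.19 (SE), adjusted p = 0.00923), with 1732, 1071 and 2265 in GFP- cells. Mmp3, stromelysin, had 41.5, 18.9 and 26.1 in the unsorted libraries and 0.958, 0.95 and 5.53 in the GFP+ libraries (3.28 ± 0.59 (SE), adjusted p = 0.0147). Neither gene's groups overlapped, and Adamts1 was called in all 16 alternative fits, whereas Mmp3 was not called without GFP+ library 2 or unsorted library 3 (adjusted p = 0.0501 and 0.0661). The protease count higher was 0 without GFP+ library 2 or unsorted library 3 (5 at an unadjusted p under 0.05 in each) and 6 without unsorted library 1, and the count lower was 3 without GFP+ library 3 and 2 without unsorted library 1.

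Antigen presentation and interferon genes are given beside the 10.3% of all genes called higher and the 6.46% called lower. Of 22 class I presentation genes, 2 were called higher, Psmb9 and Pdia3, and 1 lower, with a median of 0.15. These class I counts were near the shares of all genes. H2-K1, a class I heavy chain whose reads can be shared with related H2 genes, had 31717, 35072 and 36029 in the unsorted libraries and 34725, 32317 and 29499 in the GFP+ libraries (0.09 ± 0.12 (SE), adjusted p = 0.633), and the groups overlapped. Nlrc5, the transactivator of class I genes, was lower, with 3869, 5846 and 4799 in the unsorted libraries and 8245, 8461 and 7512 in the GFP+ libraries (-0.76 ± 0.15 (SE), adjusted p = 0.0192). Its groups did not overlap, and it was not called without GFP+ library 2 or unsorted library 3 (adjusted p = 0.076 and 0.0795). Culture held H2-K1 at 4184, 4333 and 4567 and Nlrc5 at 1109.9, 985 and 985. The class I count higher was 7 without unsorted library 1 and 0 without 4 of the other libraries (2 to 3 at an unadjusted p under 0.05).

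Beside 10.3% of all genes called higher and 6.46% lower, 2 of 11 class II genes were called higher, H2-Aa and H2-Oa, and 0 lower. edgeR called 1 higher and DESeq2 5, and 8 were higher at an unadjusted p under 0.05. Cd74, the invariant chain, had 18158, 30610.0 and 32857 in the unsorted libraries and 18993, 15449.8 and 12940.3 in the GFP+ libraries (0.76 ± 0.25 (SE), adjusted p = 0.0782). For Cd74 unsorted library 1 overlapped the GFP+ libraries, and it was the lowest unsorted library for 11 of 11 genes, and without it 9 of the 11 were called higher. The count was 3 without GFP+ library 1 and 0 without any 1 of the other 4 libraries (4 to 5 at an unadjusted p under 0.05). GFP- cells held Cd74 at 232460.0, 276381 and 260464, culture at 12.3, 6.6 and 12.4. Of 29 interferon-gamma response genes, 3 were called higher, Cxcl9, Serpina3g and Ubd, and 0 lower, with a median of 0.06; the count was 5 without unsorted library 1 and 1 without unsorted library 3, and 3 were lower without GFP+ library 3. Ubd, a ubiquitin-like gene, had 452, 704 and 715 in the unsorted libraries and 289, 271 and 216 in the GFP+ libraries (1.25 ± 0.21 (SE), adjusted p = 0.0125), above the GFP- values of 53, 89.4 and 60.5, and it was not called without unsorted library 3 (adjusted p = 0.0613). Of 25 type I interferon genes, 0 were called higher, by limma, edgeR or DESeq2 and at an unadjusted p under 0.05, and 4 lower: Mx2, Stat2, Irf9 and Xaf1. Stat2, a signal transducer of the interferon receptor, had 4501, 5635 and 5672 in the unsorted libraries and 8813, 8964 and 6702 in the GFP+ libraries (-0.63 ± 0.15 (SE), adjusted p = 0.0312). Without unsorted library 1, 2 were higher. The type I count lower was 4 without unsorted library 1, 2 without GFP+ library 3, 1 without unsorted library 2 and 0 without the other 3 libraries (5 at an unadjusted p under 0.05 in each), and the Stat2 call was lost with replicate numbers as a block (adjusted p = 0.0559), and without GFP+ library 1 (adjusted p = 0.0867), without GFP+ library 2 (adjusted p = 0.119), without unsorted library 2 (adjusted p = 0.0581) and without unsorted library 3 (adjusted p = 0.0856).

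Vegfa, the main angiogenic factor and a hypoxia target, was lower in unsorted tumour, with 3557, 2760.2 and 2056 there and 6069.9, 6066 and 6707 in the GFP+ libraries (-1.20 ± 0.19 (SE), adjusted p = 0.0105). The groups did not overlap, and GFP- cells held more, at 26923, 38697 and 21022. The call held in all 16 alternative fits. Of 25 hypoxia and glycolysis genes, 4 were called lower (Vegfa, Gapdh, Gpi1 and Eno1) and 1 higher (Adm), with a median of -0.15. Over all genes, 6.46% were called lower and 10.3% higher. The glycolytic differences were small, at -0.39 for Gapdh, -0.37 for Gpi1 and -0.34 for Eno1. Pgk1, at -0.15, was not called. The count lower was 1 without any 1 GFP+ library or unsorted library 3, and 3 to 5 without unsorted library 2 or 1.

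Proliferation genes differed little in size. Of 26 mitosis genes, 3 (Ccnb1, Nusap1 and Ube2c) were called higher in unsorted tumour and 0 lower, with a range from -0.10 to 0.41; of 23 DNA replication genes, 2 (Rrm2 among them) were called higher and 0 lower, from -0.26 to 0.50. Both shares were near the 10.3% of all genes called higher. Ccnb1, cyclin B1, had 1447, 1253 and 1375 in the unsorted libraries and 962, 1005 and 1099.5 in the GFP+ libraries (0.41 ± 0.09 (SE), adjusted p = 0.0283). GFP- cells held 182, 171 and 367. The mitosis count was 6 without unsorted library 1, 2 without GFP+ library 3 or unsorted library 2 and 0 without the other 3 (4 to 5 at an unadjusted p under 0.05), and Ccnb1 was not called with all 18 libraries in 1 fit (adjusted p = 0.163), with replicate numbers as a block (adjusted p = 0.0599), and without GFP+ library 1 (adjusted p = 0.0894), without GFP+ library 2 (adjusted p = 0.11) and without unsorted library 3 (adjusted p = 0.112). The replication count was 1 without unsorted library 1 and 0 without any 1 of the other libraries (2 to 6 at an unadjusted p under 0.05). Under edgeR 1 mitosis gene and 0 replication genes were called, under DESeq2 3 and 2.

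Unsorted library 1 stood apart from the other unsorted libraries in several housekeeping lists. It was the highest unsorted library for 30 of 30 cytosolic ribosomal protein genes and 7 of 7 mitochondrially encoded genes, and the lowest for 21 of 21 cholesterol genes. Of the 30 ribosomal protein genes, 0 were called by limma, edgeR or DESeq2 and 0 passed an unadjusted p under 0.05, while 8 were called lower without unsorted library 1. Of 21 cholesterol genes, 1, the exporter Abcg1, was called higher and 0 lower, and 8 were called higher without unsorted library 1, 2 without GFP+ library 1 and 0 without unsorted library 2 or 3 (2 at an unadjusted p under 0.05 in each). Of 24 ATF4 and unfolded protein response genes, 3 were called lower (Ddit3, Sesn2 and Herpud1) and 1 higher (Manf). The count lower was 10 without unsorted library 1, 4 without GFP+ library 3 and 0 without any 1 of the other 4 libraries (4 to 5 at an unadjusted p under 0.05), and the count higher was 4 without unsorted library 1. Of 24 nuclear oxidative phosphorylation genes 2 were called higher (edgeR 0, DESeq2 5), 3 without unsorted library 1, 1 without unsorted library 2 and 0 without the other 4 libraries (3 to 7 at an unadjusted p under 0.05). Of 7 mitochondrially encoded genes 1 was called higher, 2 without unsorted library 1 or 2, and 0 without the other 4 libraries (2 to 5 at an unadjusted p under 0.05). Over all genes tested, 10.3% were called higher and 6.46% lower. No RNA quality values were at hand.

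Glucocorticoid, p53 and progenitor lists held calls in both directions, where 10.3% of all genes were called higher and 6.46% lower. Of 14 glucocorticoid response genes, 4 were called lower, Errfi1, Sgk1, Klf9 and Ddit4, and 1 higher, Pdk4. Sgk1, a kinase induced by steroids and by serum, had 1277, 959 and 903 in the unsorted libraries and 3325, 1975 and 1500.1 in the GFP+ libraries (-1.05 ± 0.28 (SE), adjusted p = 0.0451), and GFP- cells held 55303, 55229 and 44745. Its call was lost without GFP+ library 1 (adjusted p = 0.0552), without GFP+ library 2 (adjusted p = 0.117), without unsorted library 2 (adjusted p = 0.103) and without unsorted library 3 (adjusted p = 0.146), and with a filter at 50 (adjusted p = 0.0534). The count lower was 6 without unsorted library 1, 4 without GFP+ library 3 and 0 without any 1 of the other 4 libraries (5 to 6 at an unadjusted p under 0.05). Of 15 p53 pathway genes, 3 were called lower and 3 higher; the lower ones, Plk2, Btg2 and Bbc3, include early response genes, and the higher ones were Ccng1, Trp53inp1 and Bax. Without unsorted library 1 the p53 counts were 6 lower and 3 higher, without GFP+ library 3 they were 4 lower and 1 higher, without GFP+ library 2 or unsorted library 3 they were 2 lower and 0 higher (3 higher at an unadjusted p under 0.05 in each), and without unsorted library 2 they were 2 lower and 1 higher. Of 21 neural progenitor and glioma genes, 5 were called higher and 1 lower; the count higher was 8 without GFP+ library 3, 6 without unsorted library 1, 1 without unsorted library 3 and 3 without any 1 of the other libraries, and the count lower was 6 without unsorted library 1. Id4, an inhibitor of neural differentiation factors, had 22.1, 41.4 and 61.8 in the unsorted libraries and 0, 0 and 1.84 in the GFP+ libraries (4.80 ± 0.59 (SE), adjusted p = 0.00754). Fabp7, a fatty acid binding protein of radial glia, had 1229, 1404 and 1982 in the unsorted libraries and 472, 296 and 829 in the GFP+ libraries (1.63 ± 0.36 (SE), adjusted p = 0.0262). The lower gene was Sox4, a transcription factor of progenitors, with 1135, 1010.3 and 1091 in the unsorted libraries and 1569, 1829 and 1802 in the GFP+ libraries (-0.68 ± 0.09 (SE), adjusted p = 0.00872). The groups did not overlap for these 3 genes, and the Fabp7 call was lost without GFP+ library 1 (adjusted p = 0.0574), without GFP+ library 2 (adjusted p = 0.0622), without unsorted library 2 (adjusted p = 0.0607) and without unsorted library 3 (adjusted p = 0.1). The neural progenitor filament gene Nes, which GFP+ and cultured cells share, was not called, at -0.35.

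Since unsorted cells hold both sorted fractions, values outside both are given as a description, with no test. The 3 unsorted values lay above all 6 sorted values for 1466 genes (9.6%) and below them for 1319 (8.64%). Among genes with a mean of at least 100 in 1 group, those furthest above included Trank1, Gad2, Snhg11 and Mlc1, with gaps to the nearest sorted value of 3.55, 3.26, 2.99 and 2.97 on the log2 scale. The 5 furthest below were Fosb, Fos, Egr1, Cxcl2 and Dusp1, with gaps of -6.64, -4.15, -3.14, -2.71 and -2.60. Immediate early genes were thus among the furthest below both fractions, and Gad2 of the neuron list among the furthest above. Under TMM scaling the counts were 1087 above and 1658 below.

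The same contrast was set against that of Pfp/Rag2-/- hosts with an interaction test over 12 libraries. Of 16161 genes, 151 (0.934%) had a WT difference that departed from the Pfp/Rag2-/- difference at an adjusted p of 0.05, 36 upward (0.223%) and 115 downward (0.712%). Fosb stood at 190.1, 170.3 and 168 in unsorted and 9817, 9435 and 8093 in GFP+ libraries of Pfp/Rag2-/- hosts, so its log2 difference was -7.57 in WT hosts and -5.68 in Pfp/Rag2-/- hosts (WT minus Pfp/Rag2-/- -1.89 ± 0.35 (SE), adjusted p = 0.0394). Egr1 stood at 2353, 3227 and 2736 in unsorted and 14114, 15496 and 14340.0 in GFP+ libraries of Pfp/Rag2-/- hosts, with -3.72 in WT hosts and -2.41 in Pfp/Rag2-/- hosts (-1.31 ± 0.24 (SE), adjusted p = 0.0381). In both hosts all unsorted values of these 2 genes lay below all GFP+ values. Adjusted p over the 22 alternative fits ran from 9.7e-06 to 0.116 for Fosb and from 1.3e-05 to 0.116 for Egr1, and 9 and 10 of the 22 kept the call.

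Among genes whose unsorted minus GFP+ difference was higher in WT than in Pfp/Rag2-/- hosts, Ptn, the growth factor pleiotrophin, had 554, 391 and 588 in unsorted and 98.6, 93.1 and 146 in GFP+ WT libraries. Its Pfp/Rag2-/- values were 1078, 895 and 1135 in unsorted and 901, 884 and 920.1 in GFP+ libraries, so the difference was 2.18 in WT hosts and 0.19 in Pfp/Rag2-/- hosts (1.99 ± 0.26 (SE), adjusted p = 0.0231). Mmp13, a collagenase, had 1662, 729.6 and 641 in unsorted and 492, 113 and 349 in GFP+ WT libraries. In Pfp/Rag2-/- hosts it had 50.6, 19.9 and 32.5 in unsorted and 331, 141 and 116 in GFP+ libraries (4.19 ± 0.83 (SE), adjusted p = 0.0451), and in WT hosts alone the difference of 1.77 was not called (adjusted p = 0.0757). Fhl1 and Mgp, a LIM domain protein and matrix Gla protein, had differences of 2.38 in WT hosts and -0.72 in Pfp/Rag2-/- hosts and of 2.54 in WT hosts and -0.39 in Pfp/Rag2-/- hosts (adjusted p = 0.0272 and 0.0478). In WT hosts alone, Ptn, Fhl1 and Mgp were called higher in unsorted tumour. Adjusted p ran from 5.9e-10 to 0.0798 for Ptn, 0.000499 to 0.113 for Mmp13, 1.3e-07 to 0.0994 for Fhl1 and 0.000145 to 0.115 for Mgp over the alternatives.

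In the other direction, Irs1, an insulin receptor adaptor, had 186, 276 and 251 in unsorted and 615, 605 and 429 in GFP+ WT libraries. Its Pfp/Rag2-/- values were 362, 370.5 and 353 in unsorted and 226, 290.2 and 280.0 in GFP+ libraries, so the difference was -1.21 in WT hosts and 0.45 in Pfp/Rag2-/- hosts (-1.66 ± 0.24 (SE), adjusted p = 0.0247). Plag1, a zinc finger factor of growth control, had 217, 291 and 203 in unsorted and 659, 629.9 and 565 in GFP+ WT libraries. Its Pfp/Rag2-/- values were 265, 304 and 273 in unsorted and 199.99, 300.3 and 282 in GFP+ libraries (-1.52 ± 0.24 (SE), adjusted p = 0.0264). Il33, an alarmin cytokine, had 181, 113 and 186 in unsorted and 206, 177 and 150.1 in GFP+ WT libraries, which overlapped. Its Pfp/Rag2-/- values were 285, 211 and 220.0 in unsorted and 93.1, 84.5 and 82.9 in GFP+ libraries (-1.61 ± 0.29 (SE), adjusted p = 0.0346). Over the 22 alternatives, adjusted p ran from 5.9e-07 to 0.146 for Irs1, 5.3e-06 to 0.178 for Plag1 and 0.000148 to 0.102 for Il33. The groups of WT hosts did not overlap for Irs1 and Plag1, while for Il33 the step lay in Pfp/Rag2-/- hosts. The number of genes called was 0 without GFP+ library 1 or unsorted library 2 of Pfp/Rag2-/- hosts (2663 and 2642 at an unadjusted p under 0.05) and 1105, 758 and 538 without WT unsorted library 1, WT GFP+ library 3 and WT unsorted library 2. It was 1 to 39 without any 1 of the other libraries.

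**Figure D5:**
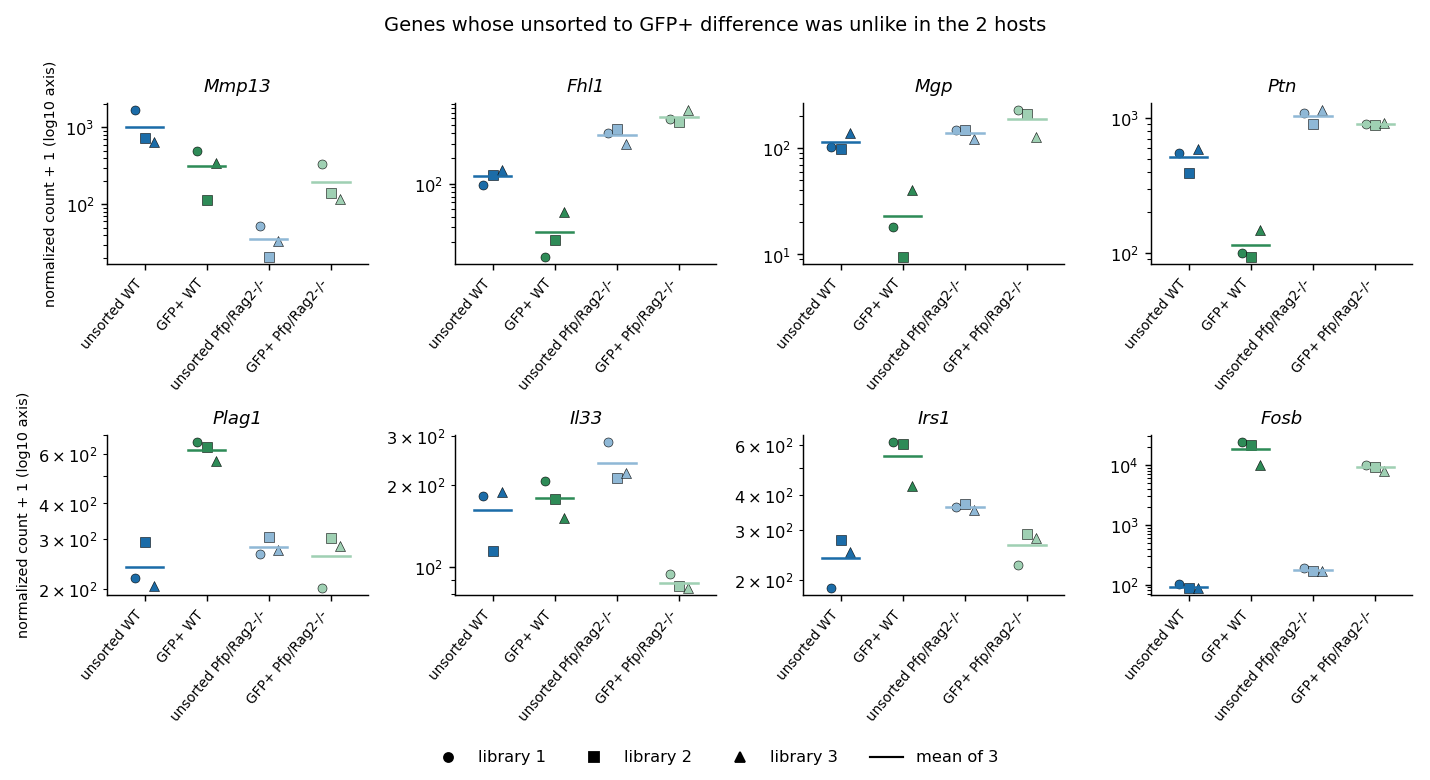
Normalized count + 1 (log10 axis) of 8 genes with an interaction at an adjusted p under 0.05 in unsorted and GFP+ libraries of WT hosts, then of Pfp/Rag2-/- hosts, with lines at the mean of 3 libraries. Ptn, Fhl1 and Mgp are higher in unsorted than in GFP+ libraries in WT hosts, and Irs1 and Plag1 lower, without such a step in Pfp/Rag2-/- hosts, while Fosb is lower in unsorted libraries of both hosts.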

How the data were processed

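Libraries were prepared by the submitters with NEBNext mRNA isolation and a directional kit and sequenced on a NextSeq 500, per the labels' protocols. STAR 2.5.2b, DESeq2 and the GRCm38 build are named per the submitters' processing notes; which counter and annotation were used is not given in the sources used here. The authors deposited 1 table of normalized counts, used here as a signal: every value was a whole multiple, within 0.05 reads, of what 1 read is worth in its library, as in counts divided by DESeq2-type size factors, and the reads were recovered from it (19172814 to 21141662 in the 18 libraries). Symbols came with the gene IDs from GENCODE vM21 for 48435 of 48795 genes.

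Genes that reached 10 in 3 or more of the 6 libraries were tested with limma 3.58.1 (trend, R 4.3.3) on log2(normalized count + 1), two-sided, with Benjamini-Hochberg adjustment at 0.05. The interaction with the host used the same fit on 12 libraries. Alternatives were a pseudocount of 10, no filter, a filter at 50, TMM and quantile scaling, robust variance moderation, all 18 libraries in 1 fit, a replicate block, each library left out, and edgeR 4.0.16 and DESeq2 1.42.0 on recovered reads. The main limma fit, edgeR and the replicate block were tested on simulated data first, and the other alternatives were not. A fit without 1 library assumes that the remaining 2 of its group vary like the other group. Marker levels are medians over markers whose GFP- mean reached 50 and whose culture mean was under 10% of that. Intervals and floors cover counting error alone.

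Named genes were the 10 highest and 10 lowest called differences without overlap (mean of at least 100), the called members of each described list with the 3 highest and 2 lowest differences, list members given with values, the 5 furthest above and below both sorted fractions, and the 4 highest and lowest called interactions. A few genes that these rules select are not reported here. The members and the 41 lists were chosen with earlier results of these data known. Promoter sequences are from RefSeq (GRCm38.p6).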

Additional observations from a re-analysis of the deposited data

Results flagged for a closer look

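These 12 genes had an unsorted minus GFP+ difference that differed between hosts by limma's interaction test over 12 libraries; values are WT minus Pfp/Rag2-/- on the log2 scale. Upward departures were 4.19 for Mmp13, 3.99 for Neu4, 3.10 for Fhl1, 2.93 for Mgp and 1.99 for Ptn, and smaller ones were 0.56 for Bax, a pro-apoptotic p53 target, and 0.47 for Manf, a secreted chaperone of the endoplasmic reticulum. Downward departures were -1.89 for Fosb, -1.66 for Irs1, -1.61 for Il33, -1.52 for Plag1 and -1.31 for Egr1. Neu4 differed by 4.37 in WT and 0.37 in Pfp/Rag2-/- hosts (adjusted p = 0.0346), Bax by 0.31 and -0.25 in WT and Pfp/Rag2-/- hosts (adjusted p = 0.0346), and Manf by 0.41 and -0.06 in WT and Pfp/Rag2-/- hosts (adjusted p = 0.0247). The call was kept in 8 to 12 of 22 alternative fits for each of the 12 genes. The cause was not tested.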

How the results depend on the processing

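Of 2697 values of 170 named genes under the alternatives, 2259 kept direction and side of the threshold, 371 lost the call, 51 gained one and 16 changed sign; 36 of the 124 named and called genes were called in all alternatives. The total of 2559 calls became 1619 with a filter at 50 and 3928 with all 18 libraries in 1 fit. The 1572 higher became 848 with a filter at 50, and the 987 lower became 1590 in the fit of 18 libraries and 1631 with DESeq2. With 1 library left out, calls ranged from 356 to 3323, higher from 234 to 1933 and lower from 122 to 1390, all lowest without unsorted library 3. Genes above both sorted fractions ranged from 1525 to 2250 and below from 1347 to 1819.

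The 151 interaction calls became 61 without a filter, 298 with a filter at 50, 76 with TMM, 270 with quantile scaling, 45 in the fit of 18 libraries, 70 with edgeR, 1216 with DESeq2, and 0 to 1105 with 1 library left out. The cause of these changes was not tested beyond the number of genes or libraries in each fit.

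Replicate numbers were not shown to pair the samples: deviations of same-numbered unsorted and GFP+ libraries correlated at -0.02, 0.06 and 0.20 across genes, and unsorted libraries 2 and 3 and GFP+ library 3 correlated best with their own number, the other 3 libraries with another. With the replicate block, calls were 1864 (1258 higher, 606 lower), and the interaction had 0 (2935 at an unadjusted p under 0.05).

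Sign changes were those of genes that were not called: -0.24 for Arc and 0.069 for Sox10 with quantile scaling, and 1.39 for Chil3 with edgeR and with DESeq2. With 1 library left out, the range was -0.30 to 0.059 for Il33, -0.32 to 0.0014 for C4b, -3.04 to 0.56 for Chil3, -0.0070 to 0.16 for Flt1, -1.24 to 0.014 for Il1a, -1.43 to 0.35 for Il1b, -1.17 to 0.69 for Il6, -0.30 to 0.17 for Mfsd2a, -0.63 to 0.24 for Slc17a7 and -0.089 to 0.082 for Sox10. With 3 libraries a group, genes at a few reads carry wide counting error.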

Other observations

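Choroid plexus genes stood apart in unsorted library 3. Ttr, the transthyretin gene that choroid plexus epithelium expresses strongly, stood at 37.8, 15.3 and 5083 in the unsorted libraries and at 47.9, 0 and 3.68 in the GFP+ libraries. Kl and Folr1, genes of the same epithelium, reached 195.9 and 99.3 in unsorted library 3. Both were at most 5.75 in the other unsorted and GFP+ libraries and were under the filter. These values were chosen after they were seen, and the difference of Ttr was not called (4.59 ± 2.27 (SE), adjusted p = 0.2).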
